A study of Homo sapiens with 16 samples.

Results

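H3K27ac over the human Schlafen gene cluster was followed in THP-1 cells with and without USP18 and type I IFN. The cluster was taken as every measured window that the deposited table assigned to SLFN5, SLFN11, SLFN12, SLFN12L, SLFN13 or SLFN14 and whose centre lay within 50000 bp of that gene's transcription start site (TSS). This rule, which used no H3K27ac value, kept 21 of 151654 windows, of which 8 were named for SLFN5, 7 for SLFN11, 3 for SLFN12L, 2 for SLFN12, 1 for SLFN13 and 0 for SLFN14. A further SLFN11 window at 60821 bp lay beyond the limit. Windows were named for the nearest TSS, which does not show the gene a window acts on.

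THP-1 cells are a leukemia line of human monocytic origin. H3K27ac, an acetyl mark on histone H3, accompanies the activity of promoters and enhancers. The 4 groups, of 2 biological replicates each, were WT cells without IFN, WT cells with IFNα at 1000 U/ml for 6 h, USP18−/− cells without IFN, and USP18−/− cells with the same IFNα treatment. Per the labels, WT cells had been transduced with lentivirus carrying a control sgRNA and USP18−/− cells with lentivirus carrying sgRNAs against USP18. The study's methods describe knockout lines as screened clones from sorted single cells, so the loss of USP18 and the history of a clone cannot be told apart here. USP18 removes the ubiquitin-like protein ISG15 from its targets and damps signalling at the type I IFN receptor.

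Type I IFN signals through JAK1 and TYK2 to a complex that includes STAT2 and IRF9, which binds the IFN-stimulated response element (ISRE) at its target genes. Schlafen proteins form a family named for the arrest of thymocyte growth by its first mouse members, and several human members are IFN-stimulated genes (ISGs) that act on RNA. SLFN5, SLFN11, SLFN13 and SLFN14 are long members with a helicase-like domain, whereas SLFN12 and SLFN12L lack it. SLFN11 blocks stressed replication forks and sensitizes cells to DNA-damaging drugs, and both SLFN11 and SLFN13 cleave tRNA and restrict HIV. SLFN12 is an RNase that is stabilized when certain small molecules join it to PDE3A, and SLFN14 is a ribosome-associated endoribonuclease.

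The genes lie in a row on chromosome 17 (hg38, GENCODE v44), beginning with SLFN5 (ENSG00000166750, from 35243071 to 35273655, plus strand). The other genes are on the minus strand, in the order SLFN11 (ENSG00000172716, from 35350305 to 35373701), SLFN12 (ENSG00000172123, from 35410922 to 35433283), SLFN13 (ENSG00000154760, from 35435096 to 35448837), SLFN12L (ENSG00000205045, from 35464249 to 35537678) and SLFN14 (ENSG00000236320, from 35543985 to 35560819). From the first to the last, the 21 windows spanned 269.7 kb. Of these, 11 lay within 3000 bp of a TSS and 10 were distal, and 14 overlapped a peak in all 8 ATAC-seq peak lists of the table. Because 9 of the windows overlap another, they form 16 separate stretches, and overlapping windows share tags.

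Short sequences are shown for windows with an ISRE core, called changed or not, and for a match at the SLFN11 start, so that the letters can be set beside the values. The windows were searched on both strands for the ISRE core (GAAA, any 2 bases, GAAA), the STAT element (GAS) TTCNNNGAA and the PU.1 core GAGGAAGT, the site of the myeloid factor PU.1. An ISRE core lay in 6 of the 21 windows, against 17.2% of all windows of this length. The distal SLFN5 window at 46347 bp held 2 copies of a repeat, chr17:35289391-35289486 on the plus strand of hg38, in which capitals mark first an ISRE core and then a GAS match in each copy.
SLFN5 window at 46347 bp: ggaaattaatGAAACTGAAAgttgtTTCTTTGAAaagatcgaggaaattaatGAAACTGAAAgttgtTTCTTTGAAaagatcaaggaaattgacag

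The copies in this stretch follow each other directly, with their starts 42 bp apart. The annotation in the table places the window centre in an L1MB7 LINE element outside the Schlafen genes. The next 4 sequences are the ISRE cores of the other windows, in capitals with 10 bases on either side, read on the strand that holds the core. They show how the letters around the core differ between windows.
SLFN12 window at −101 bp, core at chr17:35433038-35433047, minus strand, in a UTR of SLFN12: acacatgggtGAAAAAGAAAcgagagctcc
SLFN11 window at 5478 bp, core at chr17:35368223-35368232, plus strand, in an intron of SLFN11: aaactgaacaGAAAGGGAAAtgggagggca
SLFN11 window at −2726 bp, core at chr17:35376286-35376295, minus strand, outside the genes: ggggagaactGAAAGGGAAAacaaaatact
SLFN11 window at −792 bp, core at chr17:35374662-35374671, plus strand, outside the genes: aggctccagtGAAAGCGAAAgtaagaaaat

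In the SLFN5 window at −604 bp, the core lay on the minus strand at chr17:35242421-35242430, −6 bp from the window centre, and a PU.1 core lay −44 bp from the centre. GAS matches lay in 8 of 21 windows, against 26.2% of all windows, and PU.1 cores in 2, against 11% of all. One GAS match lay beside the SLFN11 start, at chr17:35373795-35373803.
SLFN11 window at 2 bp, GAS match in capitals: agttcttagtTTCCGGGAAtttggggatt

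These matches are descriptions of letters and not of bound sites.

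Libraries held 9082433 to 12971831 counts in all windows, and the 21 Schlafen windows held 3 to 634 counts per library. Levels are given as CPM, counts scaled to library size after TMM normalization, all in windows of 1000 bp. A window was called changed above a 2-fold difference (1 on the log2 scale) at an adjusted p under 0.05, with edgeR's quasi-likelihood (QL) test and the adjustment of Benjamini and Hochberg over 123276 tested windows. All 21 Schlafen windows passed the filter on low counts. Of the fixed monocytic markers, SPI1 (PU.1) was marked in every group, with group means of 65.9 to 128 CPM at its start, as was CD33, with 10.3 to 12.4 CPM. CSF1R was at 1.70 to 2.65 CPM. Among markers of other cell types, the nearest windows of CD3E and ALB were under 1 CPM, EPCAM and GATA1 had no window, and the nearest window of MS4A1, which is distal, was at 4.45 to 7.86 CPM. The group means of MNDA, a myeloid nuclear antigen, ranged from 5.41 CPM in untreated to 38.6 CPM in IFN treated USP18−/− cells, and those of LYZ from 13.4 to 5.07 CPM between the same groups. The part of such changes in the Schlafen results was not tested.

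Comparison of IFN treated with untreated cells asked which Schlafen windows gained or lost H3K27ac in each genotype. In USP18−/− cells, H3K27ac rose at 8 of 21 windows, which lay at the promoters of SLFN5 and SLFN12, at 2 distal windows of SLFN5, in intron 1 of SLFN11 and at an intergenic window −2726 bp from the SLFN11 TSS. It fell at 1, a distal window of SLFN11. Of all tested windows, 7.12% were called higher and 4.3% lower in this comparison. In WT cells, H3K27ac rose at 1 window, at the SLFN12 promoter, and fell at 0, where 0.342% of all tested windows were called higher and 0.0389% lower. At an unadjusted p under 0.05, edgeR gave 0 lower in WT cells, and DESeq2 also called 0. The median log2 fold change of the Schlafen windows was 0.32 in USP18−/− and 0.13 in WT cells, and that of all tested windows was −0.01 in each. Among windows with at least 30 counts in 2 libraries these medians were 0.73 and 0.27. Scaling by the sum of counts gave 0.19 in USP18−/− cells, and the WT median was 0.04 without replicate 1 of the IFN treated WT cells.

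**Figure D1:**
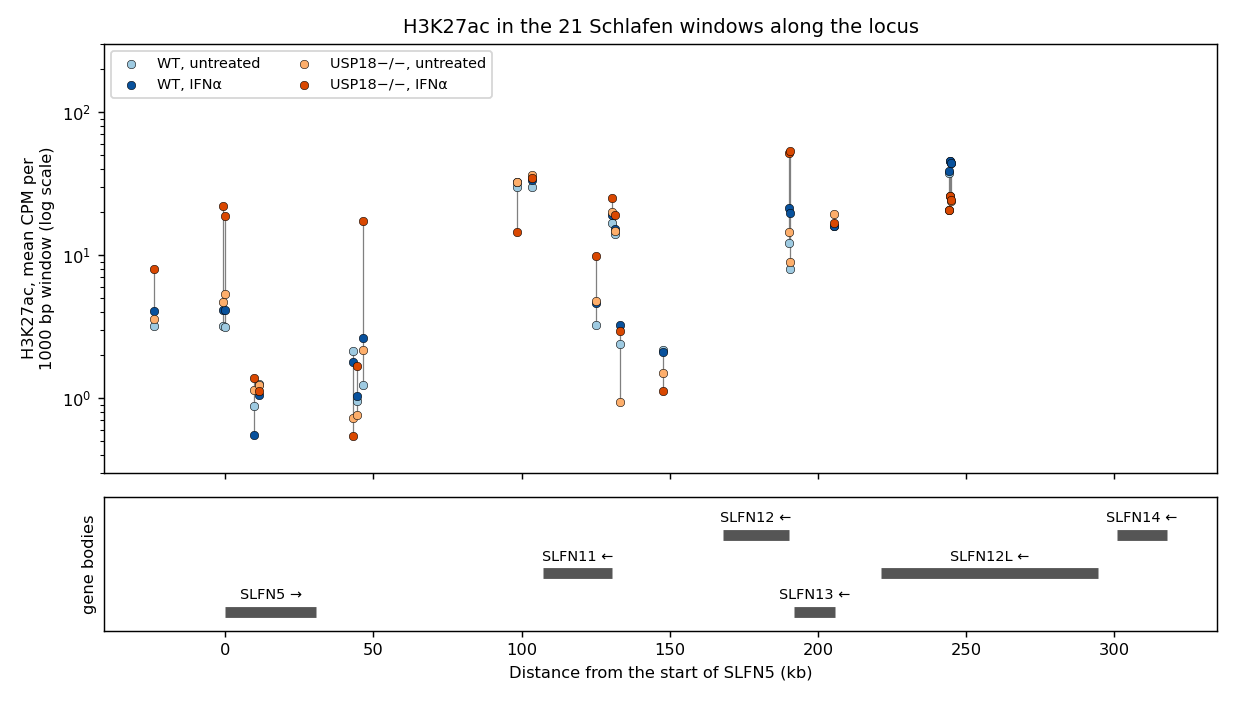
H3K27ac of the 21 Schlafen windows by distance from the start of SLFN5 in kb. Points are group means in CPM per 1000 bp window of 2 libraries each on a log axis, grey lines join the lowest and the highest group, and bars below show gene bodies with arrows for their strand; IFN treated USP18−/− cells stand highest at the SLFN5 and SLFN12 promoters and at the SLFN5 window 46347 bp from its TSS, and WT cells stand highest at SLFN12L.

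SLFN5, an inhibitor of transcription and of some DNA viruses, had low H3K27ac at its promoter in every group except IFN treated USP18−/− cells. In the window nearest its TSS (at −50 bp, chromosome 17 from 35242486 to 35243486), replicates 1 and 2 gave 2.95 and 3.31 CPM in untreated WT cells and 4.79 and 3.44 CPM in IFN treated WT cells. Without IFN, USP18−/− cells gave 5.51 and 5.13 CPM, and with IFN they reached 20.81 and 16.75 CPM. Both IFN treated USP18−/− libraries were above all 6 other libraries, and the untreated USP18−/− libraries lay above all WT libraries. In bulk chromatin, more acetylated cells and more acetylation per cell cannot be told apart. The window rose 3.53-fold with IFN in USP18−/− cells (log2 fold change 1.82, SE 0.18, adjusted p = 3.9e-14), against a log2 fold change of 0.39 in WT cells (SE 0.26, adjusted p = 0.73). The difference between these IFN effects was itself called, at 1.43 (SE 0.33, adjusted p = 7.9e-04).

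The overlapping SLFN5 window at −604 bp (from 35241932 to 35242932), which holds the promoter's ISRE core, gave 4.28 and 2.15 CPM in untreated and 4.88 and 3.44 CPM in IFN treated WT cells. It gave 5.59 and 3.80 CPM in untreated and 24.49 and 19.43 CPM in IFN treated USP18−/− cells. The WT libraries overlapped between treatments and the USP18−/− libraries did not. The IFN effect was 2.21 on the log2 scale in USP18−/− cells (SE 0.19, adjusted p = 4.0e-17) and 0.40 in WT cells (SE 0.28, adjusted p = 0.73). The difference was 1.81 (SE 0.35, adjusted p = 4.1e-05), and without replicate 1 of the untreated WT cells it was 1.26 (adjusted p = 0.060). Further upstream, the SLFN5 window at −23892 bp gave 3.46 and 2.95 CPM in untreated WT, 4.88 and 3.24 CPM in IFN treated WT, 3.44 and 3.70 CPM in untreated USP18−/− and 7.43 and 8.61 CPM in IFN treated USP18−/− cells. It rose in USP18−/− cells (1.16, SE 0.23, adjusted p = 2.7e-05), while the difference from the WT effect was 0.82 (SE 0.36, adjusted p = 0.14).

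The largest fold change of any Schlafen window was at the SLFN5 window 46347 bp from the TSS (chromosome 17 from 35288914 to 35289914), the window of the repeated ISRE and GAS stretch. It gave 1.12 and 1.34 CPM in untreated WT, 2.73 and 2.53 CPM in IFN treated WT, 2.93 and 1.42 CPM in untreated USP18−/−, and 19.68 and 15.18 CPM in IFN treated USP18−/− cells. These levels rest on 11 and 15, 28 and 25, 34 and 15, and 225 and 164 counts in the same order. H3K27ac there rose 7.87-fold in USP18−/− cells (log2 fold change 2.98, SE 0.23, adjusted p = 6.2e-20). In WT cells both treated libraries were above both untreated ones, with a log2 fold change of 1.08 (SE 0.37, adjusted p = 0.21). The effects differed by 1.90 (SE 0.47, adjusted p = 2.1e-03), which became 1.75 (adjusted p = 0.068) without replicate 2 of the untreated WT cells. Only 2 of the 8 ATAC-seq peak lists held a peak here. Of the 31-base stretches in the window, 4.22% occurred more than once in the genome, counting the copies of the repeat inside the window itself.

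The other SLFN5 windows held little signal. Those at 9749 and 11489 bp, in intron 1, held at most 1.70 CPM in any library, and neither was called for IFN. The SLFN5 window at 44418 bp, in an L1PB1 LINE element, gave 0.77 and 0.76 CPM in untreated and 0.96 and 2.41 CPM in IFN treated USP18−/− cells. With IFN, that is a log2 fold change of 1.11 (SE 0.48, adjusted p = 0.085), and it was 1.61 (adjusted p = 0.017) without replicate 1 and 0.33 without replicate 2 of the IFN treated USP18−/− cells.

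**Figure D2:**
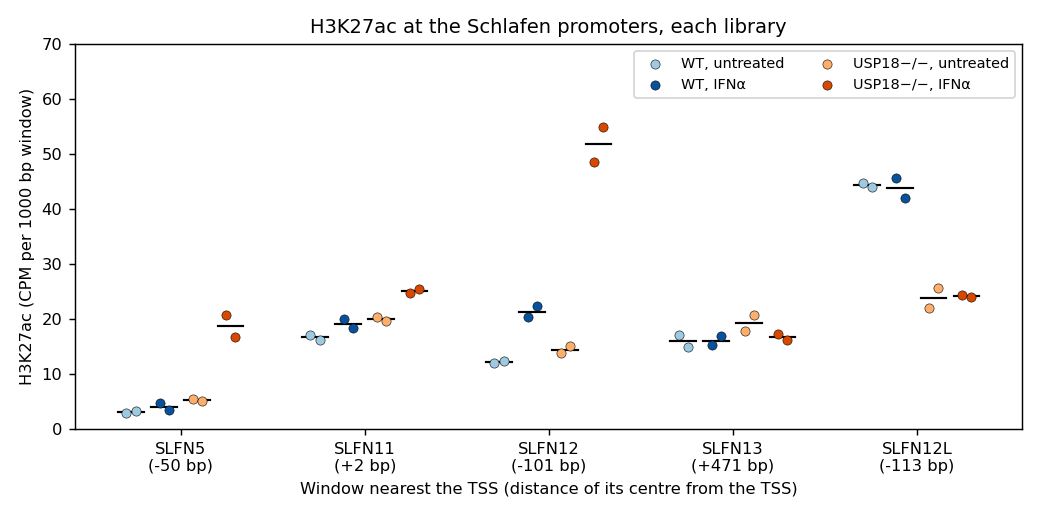
H3K27ac in CPM per 1000 bp window at the window nearest the TSS of the 5 Schlafen genes with windows. Each point is 1 library and each line the mean of the 2 libraries of a group; SLFN5 and SLFN12 are highest in IFN treated USP18−/− cells, SLFN12L is at 41.98 CPM or more in WT and 25.72 CPM or less in USP18−/− libraries, and SLFN13 differs little between groups.

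SLFN11 had a marked promoter in all groups, and the SLFN11 windows called for IFN lay outside it, at −2726, 5478 and 32151 bp. In the SLFN11 window at its TSS (at 2 bp, from 35373199 to 35374199), untreated WT cells gave 17.12 and 16.29 CPM and IFN treated WT cells 20.02 and 18.41 CPM. The values of USP18−/− cells were 20.31 and 19.74 CPM without IFN and 24.75 and 25.45 CPM with it. In each genotype both treated libraries were above both untreated ones, by 0.32 on the log2 scale in USP18−/− cells (SE 0.13, adjusted p = 0.054) and by 0.20 in WT cells (SE 0.14, adjusted p = 0.73). The overlapping window at −792 bp had log2 fold changes of 0.37 (SE 0.14, adjusted p = 0.045) and 0.10 (SE 0.15, adjusted p = 0.91), so neither promoter window passed the 2-fold threshold.

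The SLFN11 window at 5478 bp, in intron 1, gave 3.26 and 3.22 CPM in untreated WT, 4.30 and 4.96 CPM in IFN treated WT, 4.82 and 4.75 CPM in untreated USP18−/− and 9.88 and 9.81 CPM in IFN treated USP18−/− cells. It rose 2.06-fold in USP18−/− cells (log2 fold change 1.04, SE 0.21, adjusted p = 2.6e-05), just above the threshold. Scaled by the sum of counts, this was 0.91, and scaled by tag totals 0.97, in each case no longer called. The SLFN11 window at −2726 bp gave 2.75 and 2.06 CPM in untreated WT, 3.22 and 3.24 CPM in IFN treated WT, 1.03 and 0.85 CPM in untreated USP18−/−, and 3.41 and 2.50 CPM in IFN treated USP18−/− cells. It rose 3.10-fold in USP18−/− cells (log2 fold change 1.63, SE 0.37, adjusted p = 2.4e-04) from a level below that of WT cells. The IFN effects at 5478 and −2726 bp differed between genotypes by 0.53 (SE 0.33, adjusted p = 0.38) and 1.20 (SE 0.49, adjusted p = 0.11).

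One distal SLFN11 window lost H3K27ac. The window at 32151 bp (from 35341050 to 35342050), downstream of the gene in a MER11D long terminal repeat of the ERVK class, gave 30.77 and 29.63 CPM in untreated WT, 34.47 and 30.45 CPM in IFN treated WT, and 31.67 and 33.60 CPM in untreated USP18−/− cells. In IFN treated USP18−/− cells it gave 14.87 and 14.07 CPM, below the other 6 libraries. With IFN, USP18−/− cells had a log2 fold change of −1.17 there (SE 0.13, adjusted p = 5.1e-13), a 2.25-fold fall, against 0.11 for WT cells (SE 0.12, adjusted p = 0.87). The difference between the IFN effects was −1.28 (SE 0.17, adjusted p = 9.1e-09). In this window 41.2% of the 31-base stretches occurred more than once in the genome, so part of its tags may belong to other copies. Its neighbour at 27188 bp had a similar level and was not called, with 36.41 and 35.88 CPM in untreated and 34.98 and 33.77 CPM in IFN treated USP18−/− cells (log2 fold change −0.07, SE 0.11, adjusted p = 0.72). The SLFN11 window at −17142 bp held 1.11 to 2.42 CPM and was not called either.

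SLFN13 had its only window at 471 bp (from 35447866 to 35448866), in intron 1. It gave 17.22 and 14.95 CPM in untreated WT, 15.23 and 16.99 CPM in IFN treated WT, 17.82 and 20.69 CPM in untreated USP18−/−, and 17.23 and 16.19 CPM in IFN treated USP18−/− cells. The IFN effect was 0.01 (SE 0.15, adjusted p = 0.99) in WT and −0.20 (SE 0.14, adjusted p = 0.35) in USP18−/− cells. SLFN14 had no window, and none of the 151654 windows overlapped its gene body.

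Among the promoter windows of the cluster, those of SLFN12 reached the highest level with IFN in USP18−/− cells. In the window nearest its TSS (at −101 bp, from 35432777 to 35433777), which holds the ISRE core in the UTR, untreated WT cells gave 12.12 and 12.35 CPM and IFN treated WT cells 20.31 and 22.45 CPM. Those of USP18−/− cells were 13.86 and 15.09 CPM without IFN and 48.62 and 54.87 CPM with it. No group overlapped another. It rose 3.58-fold with IFN in USP18−/− cells (log2 fold change 1.84, SE 0.12, adjusted p = 2.8e-23), while the effect in WT cells was under 2-fold at 0.80 (SE 0.14, adjusted p = 6.8e-05). The effects differed by 1.03 (SE 0.19, adjusted p = 1.7e-05), which lies close to the 2-fold threshold. This difference was 0.90 when scaled by the sum of counts and 0.97 when scaled by tag totals. It was 0.94, 0.95 and 0.96 without replicate 1 of untreated USP18−/−, replicate 2 of IFN treated USP18−/− or replicate 1 of IFN treated WT cells, and so below the threshold.

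The overlapping SLFN12 window at −572 bp (from 35433248 to 35434248) gave 7.74 and 8.32 CPM in untreated WT and 21 and 18.41 CPM in IFN treated WT cells. In USP18−/− cells the levels were 8.52 and 9.40 CPM before and 55.44 and 52.19 CPM after treatment. This was the only Schlafen window called for IFN in WT cells, where it rose 2.45-fold (log2 fold change 1.29, SE 0.15, adjusted p = 9.2e-10). In USP18−/− cells it rose 6.01-fold (log2 fold change 2.59, SE 0.13, adjusted p = 2.5e-30). The difference was 1.30 (SE 0.21, adjusted p = 1.3e-06), and the untreated genotypes differed by 0.15 (SE 0.17, adjusted p = 0.55).

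SLFN12L did not respond to IFN at the 3 windows named for it, but these windows differed between genotypes. Its 3 windows overlap one another at the TSS named in the table, which lies within the longer GENCODE gene body. In the nearest, at −113 bp (from 35487352 to 35488352), untreated WT cells gave 44.73 and 44.04 CPM, IFN treated WT cells 45.60 and 41.98 CPM, untreated USP18−/− cells 22.12 and 25.72 CPM, and IFN treated USP18−/− cells 24.40 and 24.06 CPM. Every WT library was above every USP18−/− library, with and without IFN. The IFN effects at the 3 windows lay between −0.02 and 0.06 on the log2 scale, with adjusted p from 0.94 to 1.00 in both genotypes. Across the start of the longer gene body, a window named for another gene rose with IFN in USP18−/− cells (log2 fold change 2.01), as described below. At −113 bp the genotype difference was −0.89 in untreated (SE 0.11, adjusted p = 2.3e-10) and −0.85 in IFN treated cells (SE 0.11, adjusted p = 5.0e-10). At 157 bp it was −0.83 and −0.80, and at 461 bp −0.85 and −0.91, so that the 3 windows were 1.75 to 1.88-fold lower in USP18−/− cells and short of the 2-fold threshold. Scaled by the sum of counts, all 3 were called lower with IFN, at −1.13, −1.08 and −1.19 in the same order, and −113 bp also without IFN, at −1.04. Scaling by tag totals gave −1.03 at 461 bp with IFN, and −113 bp was just past the threshold (adjusted p = 3.5e-09) without replicate 2 of the untreated USP18−/− cells, each called lower.

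**Figure D3:**
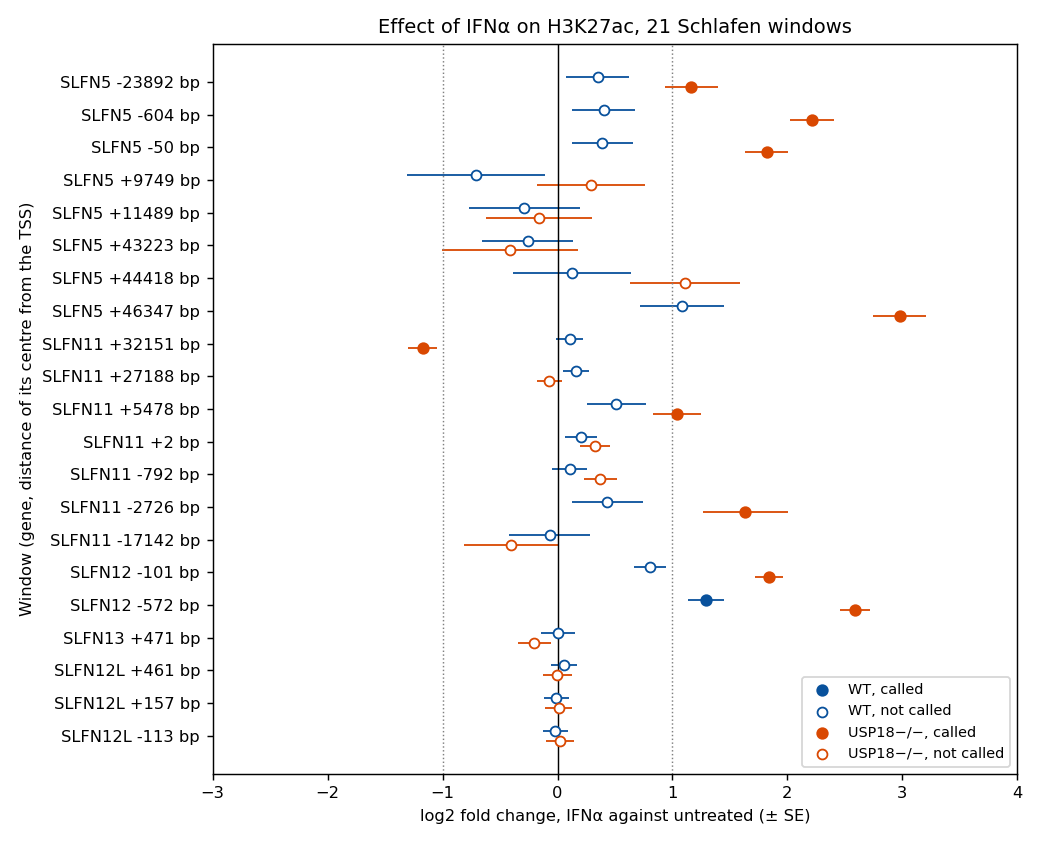
Log2 fold change of H3K27ac with IFNα in WT and in USP18−/− cells at the 21 Schlafen windows, with bars for ± SE from the fit. Filled points are called changed, open points are not, and dotted lines mark the 2-fold threshold; 8 windows are filled on the right and 1 on the left for USP18−/− cells, and 1 on the right for WT cells.

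The difference of the IFN effects was called at 6 of the 21 windows, higher in USP18−/− cells at 5 and lower at 1, where 4.66% of all tested windows were called higher and 2.51% lower. The higher windows were SLFN5 at −604, −50 and 46347 bp and SLFN12 at −101 and −572 bp, and the lower one was SLFN11 at 32151 bp. With 1 window kept for each overlapping stretch, the one of highest mean CPM, 3 were higher and 1 lower. Of the 6 windows with an ISRE core, 5 rose with IFN in USP18−/− cells, and 3 of the 15 without. Across all tested windows, 19.6% of those with an ISRE core and 4.55% of those without were called higher. The window with a core that was not called was SLFN11 at −792 bp. The 3 that rose without a core were SLFN5 at −23892 and −50 bp and SLFN12 at −572 bp, and the −50 and −572 bp windows overlap windows that hold one. The share of windows with a core depends on the search, since 3 of 21 held one in the central 200 bp (5.43% of all windows), and all 21 when 1 mismatch was allowed (83.9% of all).

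Comparison of the genotypes asked how the cluster differed without IFN and with it. Without IFN, H3K27ac was called lower in USP18−/− cells at 2 of 21 windows and higher at 0, where 10.8% of all tested windows were called lower and 5.67% higher. DESeq2 also called 0 higher, and by edgeR 5 windows were higher at an unadjusted p under 0.05. The lower windows were SLFN5 at 43223 bp and SLFN11 at −2726 bp. By DESeq2 the SLFN5 window differed by −1.54 (adjusted p = 0.064) and was not called. The SLFN5 window, in a MER57C2 long terminal repeat, gave 2.04 and 2.24 CPM in untreated WT, 2.44 and 1.11 CPM in IFN treated WT, 0.60 and 0.85 CPM in untreated USP18−/−, and 0.26 and 0.83 CPM in IFN treated USP18−/− cells. It differed by −1.55 without IFN (SE 0.46, adjusted p = 4.9e-03) and by −1.70 with IFN (SE 0.51, adjusted p = 3.9e-03). These values rest on 3 to 25 counts, and the first became −1.31 (adjusted p = 0.067) without replicate 1 of the untreated USP18−/− cells. The second became −1.03 (adjusted p = 0.26) without replicate 1 of the IFN treated WT cells and −1.12 (adjusted p = 0.12) without replicate 1 of the IFN treated USP18−/− cells.

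The SLFN11 window at −2726 bp differed by −1.32 without IFN (SE 0.39, adjusted p = 4.2e-03), with 9 and 12 counts in the USP18−/− libraries, and by −0.12 with IFN (SE 0.30, adjusted p = 0.79). Without replicate 1 of the untreated WT cells the first value was −1.11 (adjusted p = 0.071). The SLFN5 promoter window at −50 bp was 1.69-fold higher in untreated USP18−/− cells (log2 fold change 0.76, SE 0.25, adjusted p = 0.011), under the 2-fold threshold, and that at −604 bp differed by 0.58 (SE 0.27, adjusted p = 0.084). Without replicate 1 of the untreated WT cells the −604 bp window differed by 1.13 (adjusted p = 9.6e-03), and without replicate 2 of the untreated USP18−/− cells the 46347 bp window differed by 1.23 (adjusted p = 0.013), so that each was then called. With other libraries left out the values were as low as 0.14 and 0.20. The SLFN11, SLFN12 and SLFN13 windows nearest the TSS differed by 0.26, 0.24 and 0.26, none at an adjusted p under 0.05.

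With IFN, H3K27ac was called higher in USP18−/− cells at 7 of 21 windows and lower at 2, where 11.3% of all tested windows were called higher and 13.4% lower. Scaling by the sum of counts gave 4 higher and 6 lower, and moved the median of all tested windows from 0.00 to −0.27 on the log2 scale. The higher windows were led by SLFN5 at 46347 bp, at 6.60-fold (log2 fold change 2.72, SE 0.23, adjusted p = 2.0e-18), followed by SLFN5 at −604 bp at 5.26-fold (2.39, SE 0.20, adjusted p = 3.5e-18) and −50 bp at 4.55-fold (2.19, SE 0.20, adjusted p = 8.2e-17). SLFN12 was 2.73-fold higher at −572 bp (1.45, SE 0.12, adjusted p = 2.2e-18) and 2.42-fold higher at −101 bp (1.27, SE 0.12, adjusted p = 4.3e-16). The SLFN11 window at 5478 bp differed by 1.09 (SE 0.21, adjusted p = 8.6e-06), close to the threshold. It was 0.81 when scaled by the sum of counts, 0.97 when scaled by tag totals and 0.99 without replicate 1 of the IFN treated WT cells, and then not called. The last, SLFN5 at 9749 bp, differed by 1.33 (SE 0.55, adjusted p = 0.045) on 4 to 19 counts, and its adjusted p was 0.28, 0.054 and 0.31 without replicate 1 or 2 of the IFN treated WT cells or replicate 1 of the IFN treated USP18−/− cells. The lower windows were SLFN5 at 43223 bp and SLFN11 at 32151 bp, the latter with a difference of −1.17 (SE 0.13, adjusted p = 4.3e-13).

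**Figure D4:**
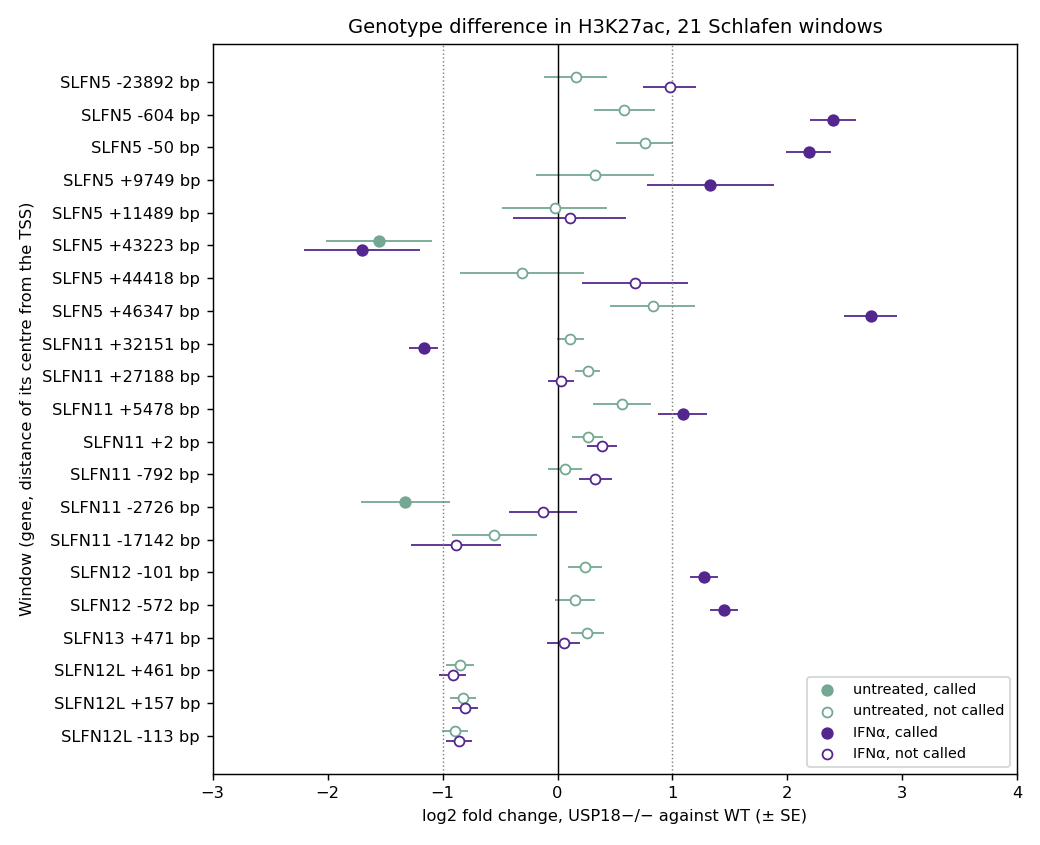
Log2 fold change of H3K27ac in USP18−/− against WT cells, untreated and with IFNα, at the 21 Schlafen windows, with bars for ± SE from the fit. Filled points are called changed and dotted lines mark the 2-fold threshold; the SLFN12L windows sit between −0.91 and −0.80 in both conditions, and the SLFN5 and SLFN12 promoter windows move to the right with IFNα.

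The order of the promoter windows changed between groups. In untreated WT cells SLFN12L was highest at 44.4 ± 0.489 CPM (SD, n = 2), followed by SLFN11 at 16.7 ± 0.585 CPM and SLFN13 at 16.1 ± 1.61 CPM, whose libraries overlapped, then SLFN12 at 12.2 ± 0.161 CPM and SLFN5 at 3.13 ± 0.252 CPM. In IFN treated WT cells SLFN12, at 21.4 ± 1.52 CPM, stood above SLFN11 at 19.2 ± 1.14 CPM. In untreated USP18−/− cells the order was that of untreated WT cells, with SLFN12L at 23.9 ± 2.55 CPM, and SLFN11 and SLFN13 overlapped again. In IFN treated USP18−/− cells SLFN12 was highest at 51.7 ± 4.42 CPM, SLFN11 was at 25.1 ± 0.494 CPM, SLFN12L at 24.2 ± 0.240 CPM, and SLFN5 at 18.8 ± 2.87 CPM overlapped SLFN13 at 16.7 ± 0.731 CPM.

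Other windows within the longer SLFN12L gene body or between it and SLFN14 were named for the uncharacterized gene LOC107985033 and are not counted above. All 7 were tested. The one at −31408 bp from that gene's TSS (from 35521297 to 35522297) gave 15.4 and 14.6 CPM in untreated WT, 14.6 and 17.3 CPM in IFN treated WT, 3.18 and 2.66 CPM in untreated USP18−/− and 2.10 and 2.87 CPM in IFN treated USP18−/− cells. It was called lower in USP18−/− cells, by −2.35 without IFN (SE 0.21, adjusted p = 1.5e-16) and −2.68 with IFN (SE 0.21, adjusted p = 2.7e-19), the same direction as at the SLFN12L promoter. At −15475 bp (from 35537230 to 35538230), across the 5′ end of the SLFN12L gene body, H3K27ac rose with IFN in USP18−/− cells from 1.20 and 1.14 to 4.20 and 5.37 CPM (2.01, SE 0.33, adjusted p = 3.2e-07). The effect there differed from that in WT cells by 1.75 (SE 0.51, adjusted p = 0.011), and the IFN treated genotypes differed by 1.37 (SE 0.30, adjusted p = 1.0e-04). The window at −12013 bp rose by 1.02 (SE 0.24, adjusted p = 3.3e-04). The remaining 4 were called in none of the 5 comparisons.

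A further pair of lists, chosen with earlier results of these data known, put these counts beside other genes of the pathway, with the same distance rule. Near 13 type I IFN signalling genes, 110 windows were tested, of which IFN raised 7 and lowered 1 in WT cells and raised 17 and lowered 1 in USP18−/− cells. Shares over all tested windows were 0.342% raised in WT and 7.12% in USP18−/− cells. The IRF9 promoter, which encodes the DNA-binding partner of STAT2, had log2 fold changes of 1.67 in WT and 2.08 in USP18−/− cells. The receptor genes IFNAR1 and IFNAR2, with 13 and 11 windows tested, had 0 raised in either genotype. These are too few windows to tell that count from the shares over all tested windows. Near 11 other antiviral genes that act on RNA or translation, 67 windows were tested, of which IFN raised 19 in WT and 34 in USP18−/− cells and lowered 0 and 1. In that list the promoter of OAS3, a 2′-5′ oligoadenylate synthetase, had log2 fold changes of 2.84 and 4.02. Medians of the log2 fold change in USP18−/− cells were −0.12 for the signalling list, 1.30 for the antiviral list and 0.32 for the Schlafen windows. The difference of the IFN effects was called higher at 5 and lower at 2 of the 110 signalling windows, and higher at 27 and lower at 0 of the 67 antiviral windows, where 4.66% of all tested windows were called higher. The signalling count is near that share.

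Windows within 1 Mb of the cluster and named for other genes were taken as its neighbourhood. Of 119 tested, edgeR called 0 in either direction for IFN in WT cells, where 6 had a positive and 4 a negative change at an unadjusted p under 0.05, and 27 were called higher and 0 lower in USP18−/− cells, with medians of 0.09 and 0.33. Over all tested windows, 7.12% were higher and 4.3% lower in USP18−/− cells. Without IFN, 18 of the 119 were higher and 1 lower in USP18−/− cells, with a median of 0.29, against 5.67% higher and 10.8% lower over all tested windows. All 18 higher windows were named for CC chemokine genes, as were most of the 27 higher with IFN. The lower one was the LOC107985033 window described above, within the SLFN12L gene body.

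Among 13018 promoters of other genes, those whose log2 CPM followed that of SLFN5 most closely over the 8 libraries were POPDC2, XRN1, APOBEC3G, HLA-C and TRIM26, with root mean square differences of 0.140 to 0.161 after centring each on its mean. XRN1 is a 5′ to 3′ exoribonuclease and APOBEC3G a restriction factor of retroviruses. Among the 5 promoters most like that of SLFN11 were IREB2, LRP12, KDELC2 and NDUFS4, with differences of 0.015 to 0.053. These 4 had log2 fold changes with IFN in USP18−/− cells of 0.33 to 0.35, against 0.32 for SLFN11. All promoters in these comparisons come from the same 8 libraries.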

How the data were processed

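H3K27ac ChIP-seq of THP-1 cells gave 8 libraries, 2 for each of 4 groups. Per the submitters' processing notes and the study's methods, the authors mapped reads to hg38 with Bowtie2 and used HOMER to count tags around merged ATAC-seq peaks, 1000 bp per window. The deposited values were estimated counts, raw and not normalized, with fractional tags: 52.2% were whole numbers. They were rounded to whole counts. The table left 0 value columns unmapped. The 8 input libraries and the ATAC-seq data were not analysed here.

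The Schlafen windows and the gene lists were chosen with earlier results of these data known. Windows reaching 10 counts in 2 or more of the 8 libraries were fitted with edgeR 4.0.16 in R 4.3.3 (TMM scaling, quasi-likelihood test, Benjamini-Hochberg adjustment over 123276 windows), with 1 mean per group. The SE is the log2 fold change divided by the root of the F statistic. DESeq2, which the study used, was run here in version 1.42.0 as an alternative, as were other scalings, filters, thresholds, distances, a replicate block and omission of single libraries. Fits to unrounded tags and counts of 1 window per overlapping stretch were added after seeing the data. The common biological coefficient of variation was 0.0737, and with 2 libraries per group precision rests on sharing the spread across windows. The fit was tested on simulated data. Named windows were the one nearest each TSS and, per comparison, the 5 called windows with the largest change, and the other Schlafen windows are described more briefly. The promoters most like SLFN5 and SLFN11 were ranked among windows within 1000 bp of a TSS with a mean of at least 1 CPM, 1 per gene. Sequences were read from hg38, and gene bodies come from GENCODE v44. Values of a few genes on the lists are not reported here.

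The labels give replicate numbers only and do not say whether libraries of the same number share a batch. Between libraries of the same number, deviations from the group means had r from −0.00295 to 0.0463, so the numbers were not taken as pairs.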

Additional observations from a re-analysis of the deposited data

Results flagged for a closer look

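At 6 Schlafen windows the effect of IFN differed between USP18−/− and WT cells by the test of the difference itself, the interaction of genotype and IFN in edgeR's quasi-likelihood fit. The effect was larger in USP18−/− cells by 1.81 on the log2 scale at the SLFN5 window at −604 bp, by 1.43 at the SLFN5 window at −50 bp and by 1.90 at the SLFN5 window at 46347 bp. It was larger by 1.03 at the SLFN12 window at −101 bp and by 1.30 at the SLFN12 window at −572 bp. At the SLFN11 window at 32151 bp the difference was −1.28, and both IFN treated USP18−/− libraries lay below the other 6. The paired windows of SLFN5 and of SLFN12 overlap and share tags, so these are 4 separate stretches.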

How the results depend on the processing

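With 2 libraries per group, windows under about 30 counts carried the largest errors, and the difference of 2 effects carried more than either. Where a window was called in a comparison by any run, its direction in that comparison reversed under no alternative run. Windows never called in a comparison were not checked for this. Counts of called Schlafen windows moved most with the fold threshold, the distance and the scaling. Without a fold threshold, 2 were higher for IFN in WT cells, 1 higher and 5 lower between the untreated genotypes, and 5 lower between the IFN treated genotypes. Within 10000 bp of the TSS, 0 were lower for IFN in USP18−/− cells, 1 lower between the untreated genotypes, 0 lower between the IFN treated genotypes and 0 lower for the difference of the IFN effects. Requiring at least 30 counts in 2 libraries left 1 lower in each genotype comparison, and DESeq2 gave 1 lower between the untreated genotypes. Between the IFN treated genotypes, scaling by the sum of counts gave 4 higher and 6 lower, and scaling by tag totals 4 lower. With 1 window per overlapping stretch, the one of highest mean CPM, 0 were higher for IFN in WT cells and 3 for the difference of the effects. For SLFN12 this kept the window at −101 bp in place of that at −572 bp. The IFN effect at −101 bp in WT cells was 0.80 by edgeR's QL test (adjusted p = 6.8e-05), under the fold threshold. Exact ISRE cores lay in 3 windows in the central 200 bp and in 21 with 1 mismatch.

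Leaving out each library in turn, the counts ranged from 8 to 9 higher for IFN in USP18−/− cells, from 0 to 1 higher and 1 to 3 lower between the untreated genotypes, from 6 to 7 higher and 1 to 2 lower between the IFN treated genotypes, and from 4 to 5 higher for the difference of the effects. The replicate block gave 1 higher window for IFN in WT cells, 8 higher and 1 lower for IFN in USP18−/− cells, 0 higher and 2 lower between the untreated genotypes, 7 higher and 2 lower between the IFN treated genotypes, and 5 higher and 1 lower for the difference of the effects, as without it. Same-numbered libraries correlated at most with r = 0.0463. The causes of these shifts were not tested.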
